A study of Mus musculus with 5 samples.

Results

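The cells described here are the fibro-adipogenic progenitors (FAPs) of uninjured mouse muscle. They are the 3516 cells that the authors' deposited annotation of the day 0 matrix calls FAPs, of 5176 annotated cells at day 0 and 17923 annotated cells over all 4 days. They made up 67.9% of the day 0 cells, with an exact Clopper-Pearson 95% interval of 66.6 to 69.2% that covers counting error only. The series profiled single cells of the tibialis anterior, a muscle of the shin, from C57Bl/6 mice before and at days 2, 5 and 7 of injury by notexin, a toxin from snake venom under which muscle fibres die. The uninjured group was female and 4 months old, with C57Bl/6 as the genotype, no further allele or agent named, and no injury. The injured groups were female at day 2 (7 months old) and day 5 (4 months old) and male at day 7 (4 months old). Muscle was digested with Collagenase D and Dispase II, red blood cells were lysed, and live cells were sorted with propidium iodide and calcein before 10x Chromium 3′ v2 libraries were made. The 2 sequencing runs of day 0 share 1 matrix and cannot be told apart, and the labels do not say how many mice they hold. Hence the FAPs stand for 1 library, no p-value is given, and intervals cover counting error only.

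FAPs are mesenchymal stromal cells that lie between the fibres and around the vessels of skeletal muscle and carry the platelet-derived growth factor receptor Pdgfra. They lay down and remodel the matrix, secrete factors that act on muscle stem cells and immune cells, and can turn into fat cells or matrix-producing fibroblasts. In many tissues, fibroblasts that make Pi16 and the surface peptidase Dpp4 have been set apart from fibroblasts of the tissue interior, and in muscle Smoc2, Cxcl14 and Myoc have been used for the latter.

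The FAPs held 16340055 UMIs (unique molecular identifiers, 1 per counted mRNA molecule), 73.2% of the annotated day 0 total. A FAP had a median of 4452 UMIs (range 1434 to 17416) and 1748 genes, and 2.25% of its UMIs were mitochondrial. The other 6 labels held 57 to 1089 cells, with medians from 2203 UMIs in endothelial cells to 5320.5 in tenocytes. Day 0 shared 40, 12 and 39 cell barcodes with days 2, 5 and 7. Levels below are UMIs of a gene per 1000000 UMIs of a label or class (cpm); since 1 molecule gives 1 UMI at its 3′ end, they are shares of molecules and need no division by gene length.

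The 6 marker genes are described first. The labels were given from these same cells, so marker levels under a label are no independent check of it. Pi16, a secreted peptidase inhibitor family protein, stood at 2707 cpm in FAPs and at 132 to 499 cpm in the other labels. Myoc, which encodes the secreted protein myocilin, stood at 2733 cpm in FAPs and at 151 to 977 cpm elsewhere. Smoc2, a matricellular calcium-binding protein, stood at 2168 cpm against 94.2 to 704 cpm, and the chemokine Cxcl14 at 1024 cpm against 21.1 to 312 cpm. Pdgfra stood at 231 cpm against 14.1 to 64.3 cpm. For these 5 genes the FAPs lay above every other label. Dpp4 was the exception, at 87.7 cpm in FAPs and 107 cpm in tenocytes, and it had no UMI in the label Platelets. When every cell was thinned at random to 1000 UMIs, a UMI of Myoc was found in 67.8% of FAPs and 13.6% of endothelial cells, and one of Pi16 in 63.0% and 15.1%. Smoc2 was found in 53.0% and 10.6%, Cxcl14 in 23.2% and 3.49%, Pdgfra in 20.6% and 1.56%, and Dpp4 in 7.00% and 0.459%. Endothelial cells do not belong to the stroma, so their shares stand here as a background level; where those UMIs came from was not tested. Before thinning, with median depths of 4452 and 2203 UMIs, 83.8% of FAPs had a UMI of Myoc and 57.3% one of Pdgfra.

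**Figure D1:**
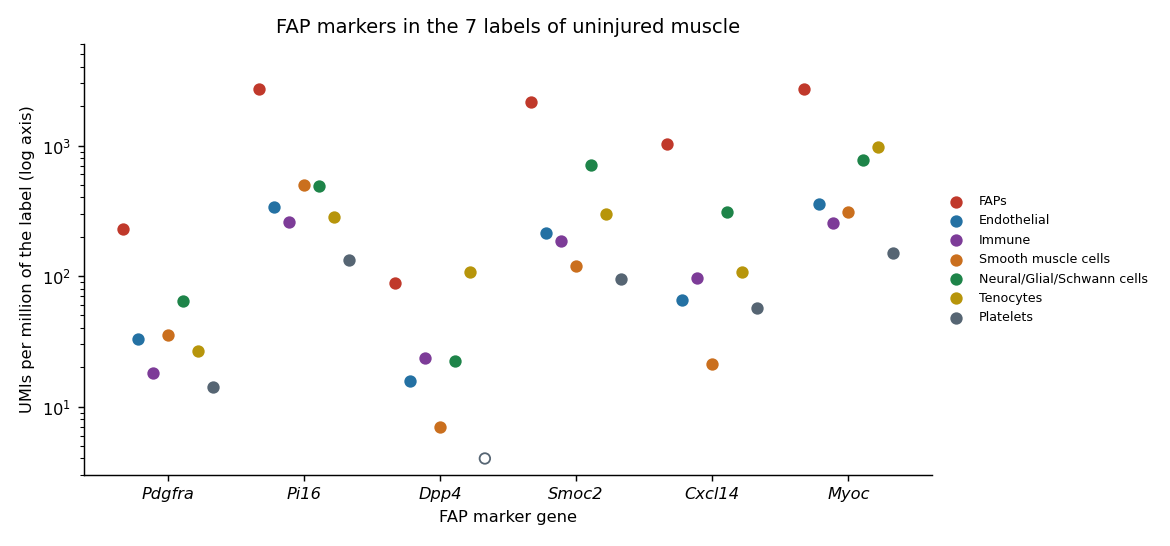
Level of the 6 FAP marker genes (horizontal axis) in the 7 labels of the day 0 matrix, in cpm on a log axis; each point is the sum over all cells of a label in 1 library, and the open circle marks a label with no UMI. FAPs are highest for 5 genes, while Dpp4 is at 87.7 cpm in FAPs and 107 cpm in tenocytes.

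A few cells under the FAPs label had the marker list of another type as their highest, and many more held some UMIs of such lists. Only 1774 of the 3516 FAPs had fewer than 2 UMIs of every other type's list. At least 2 UMIs of muscle fibre markers were in 20.7% of FAPs, of endothelial markers in 10.8%, of immune markers in 10.6% and of tenocyte markers in 8.99%. Where those UMIs came from was not tested. When each cell was given to the marker list with the highest mean normalized value, 3449 FAPs (98.1%) went to the FAP list and 67 to another. The largest such set was 20 cells that went to the muscle stem cell list, and no cell under any other day 0 label went to it. In those 20 cells the satellite cell transcription factor Pax7 had a UMI in 14, the myogenic factor Myf5 in 11, and the intermediate filament gene Des in 13, which the list did not use. Pax7 stood at 372 cpm there against 0.311 cpm in the 3449 FAPs, and Pdgfra and Dpp4 had no UMI there. The cells were chosen by the lists that hold these genes, so the values follow at least in part from the choice. Gsn, the most abundant FAP gene and on neither list, stood at 2429 cpm in the 20 cells and at 45175 cpm in the 3449. A further 14 cells went to the red blood cell list and were likewise chosen by its genes. They had 249984 cpm of its globin and other genes beside 31585 cpm of Gsn. Summed over their lists, endothelial markers stood at 133 cpm in FAPs against 7250 in endothelial cells, immune markers at 113 against 49785, and tenocyte markers at 168 against 28868. Smooth muscle and pericyte markers stood at 46.5 cpm in FAPs, glial at 29.5, platelet at 22.6, epithelial at 29.3, muscle stem cell at 50.7, muscle fibre at 199 and red blood cell markers at 1048 cpm. Of the markers of other types found in the table, Ppbp of platelets and Krt18 of epithelium were at 0 in FAPs. The label Platelets had 47.1 cpm of platelet markers and is used below only as the authors' label.

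The most abundant gene of resting FAPs was Gsn, which encodes the actin-severing protein gelsolin. It made up 4.48% of all FAP UMIs (44811 cpm), against 2352 to 12929 cpm in the other labels. Dcn, the collagen-binding proteoglycan decorin, followed among protein-coding genes at 19316 cpm, with 38746 cpm in tenocytes and 688 to 5075 cpm elsewhere. The nuclear RNA Malat1 stood at 20614 cpm and did not set FAPs apart, since smooth muscle cells had 39040 cpm. Among the 15 most abundant genes that are neither mitochondrial nor ribosomal were also Igfbp6, which binds insulin-like growth factors (4642 cpm), the collagen gene Col3a1 (4037 cpm), the matrix glycoprotein Sparc (3930 cpm) and Clec3b, which encodes tetranectin (3893 cpm). The iron store genes Fth1 and Ftl1 stood at 6077 and 4574 cpm, the metallothionein Mt1 at 3872 cpm, and the calcium-binding S100a6 at 10276 cpm. Together these 15 genes were 14.3% of FAP UMIs, ribosomal protein genes 15.3% and mitochondrial genes 2.35%.

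Against the highest of the other 6 labels, gene by gene, FAPs stood more than 2-fold higher for 169 of the 5425 genes with at least 20 cpm in FAPs (3.12%). Inmt, an indolethylamine methyltransferase, stood at 172 cpm in FAPs and 22.2 cpm in endothelial cells, the highest other label, a log2 ratio of 2.95 (95% interval 2.60 to 3.31). The transcription factor Osr2 stood at 113 cpm against 16.1 cpm in the label Neural/Glial/Schwann cells, where it had 5 UMIs (2.81, interval 1.59 to 4.44). Hsd11b1, which regenerates active glucocorticoid, stood at 205 cpm against 29.9 cpm in immune cells (2.77, 2.37 to 3.21). Ptx3, a soluble pattern recognition protein, stood at 355 cpm against 63.2 cpm (2.49), Pi16 followed at 2.44, and the eosinophil chemokine Ccl11 stood at 1522 cpm against 288 cpm in smooth muscle cells (2.40).

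The next genes by the same measure had ratios of 1.85 to 2.38. Dpt, which encodes the matrix protein dermatopontin, stood at 1267 cpm against 257 cpm in glial-labelled cells, and the fibrillin gene Fbn1 at 764 cpm against 164 cpm (2.22). The microfibril gene Mfap5 (2.07), the fibulin gene Efemp1 (2.06) and Clec3b (2.19) followed, as did Has1, an enzyme that makes hyaluronan (739 cpm, 2.26), and Enpp2, an enzyme that makes lysophosphatidic acid (199 cpm, 2.26). Scara5, a ferritin receptor, stood at 316 against 64.3 cpm and the adhesion receptor gene Adgrd1 at 2.38. The list of 20 closed with Ms4a4d, Col14a1, Gfpt2, the aggrecanase Adamts5 and the activin antagonist Fst, at 1.85 to 1.98. These 20 genes were chosen by this ratio, so the values are a description. Their median level was 13.5% of the FAP level in endothelial cells, 9.58% in immune cells, 12.4% in tenocytes and 19.8% in glial-labelled cells. None of the 20 was above 27.7% of its FAP level in any of the 6 labels. Whether these low levels come from free FAP RNA was not tested. With the authors' log-normalized values in place of UMI sums, 33 genes passed the same 2-fold line.

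Against the 1089 endothelial cells, the largest other label, 2045 of 11836 compared genes (17.3%) stood more than 2-fold higher in FAPs and 2030 (17.2%) more than 2-fold lower. Cxcl14 had the largest ratio on the FAP side among genes of at least 100 cpm, with 1024 against 65.1 cpm (log2 3.98, interval 3.78 to 4.18). It was followed by Crispld2, a secreted LCCL-domain protein (154 against 10.3 cpm, 3.90), the alarmin Il33 (129 against 9.35 cpm, 3.79), Hsd11b1 (3.76) and the secreted protein gene Olfml3 (208 against 16.8 cpm, 3.63). The other end held Sox18, an endothelial transcription factor, at 1.84 cpm in FAPs and 284 cpm in endothelial cells (-7.27), and the Notch regulator Nrarp at 1.53 against 203 cpm (-7.05). Ppp1r16b, the glycerol channel gene Aqp7 and the potassium channel gene Kcna5 stood at -7.04 to -6.88. The ratios thus reached 3.98 on the FAP side and -7.27 on the endothelial side. With the authors' values the counts were 162 and 133.

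Against the 70 tenocytes, the other stromal label, 1265 of 7093 compared genes (17.8%) stood more than 2-fold higher in FAPs and 278 (3.92%) lower. Tenocytes are the fibroblasts of tendon, and their own genes stood far apart. The Wnt antagonist Wif1 stood at 1.59 cpm in FAPs and 1756 cpm in tenocytes (log2 -10.1), and Cilp2, the proteoglycan genes Kera and Fmod and the matrix protein gene Chad at -9.98 to -9.80. Tnmd, the tendon membrane protein tenomodulin, stood at 14.8 against 3383 cpm (-7.84) and Thbs4, a thrombospondin, at 52.1 against 6215 cpm (-6.90). Angptl7, Ccdc3 and 1500015O10Rik completed the 10 at -5.53 to -6.49. On the FAP side, Osr2 had 1842 UMIs in FAPs and 1 in tenocytes, a log2 ratio of 5.53 with an interval of 3.05 to 10.8. Inmt had 2803 UMIs and 2 (5.13, 3.28 to 8.18). The monocyte chemokines Ccl7 and Ccl2 stood at 574 against 24.4 cpm (4.56, 3.68 to 5.62) and 563 against 34.2 cpm (4.04, 3.29 to 4.91). Gas7, Zfp385a, Heg1, Lamb1, Sult5a1 and D630033O11Rik, each with 3 or 4 tenocyte UMIs, stood at 4.04 to 4.81, with intervals that together reach from 2.50 to 7.09.

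The tenocyte label held 409353 UMIs, and the number of genes past 2-fold depended on how low counts were treated. The 95% interval lay wholly past 2-fold for 293 of the 1265 higher and 123 of the 278 lower genes, and wholly on their side of equality for 922 and 278. The number past 2-fold was 795 higher and 171 lower with the minimum of expected UMIs raised 2-fold, and 431 and 84 after thinning to 1000 UMIs.

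Fixed gene lists, chosen with earlier results of these data known, describe what the FAPs make. Over the highest other label, 8 of 16 genes listed for the Pi16/Dpp4 side of stroma, 8 of 16 for the Cxcl14/Smoc2 side and 7 of 12 pan-stromal genes stood more than 2-fold higher, beside 3.12% of all genes. These lists hold the FAP marker genes, and Pi16, Smoc2, Cxcl14, Myoc and Pdgfra are among the genes counted, so the counts are a description. None of the 9 adipogenic, 20 immediate early, 10 heat shock, 10 interferon and 4 cell cycle genes compared stood more than 2-fold higher. Beside 3.12% of all genes, lists this short can hold none, so that is no result about these lists. Against endothelial cells, 13 of 16 Pi16/Dpp4-side genes were higher and 2 lower (median log2 2.86), and 14 of 16 Cxcl14/Smoc2-side genes were higher and 0 lower (2.95). Against tenocytes 11 of 16 of each were higher, while 0 of the Pi16/Dpp4-side and 3 of the Cxcl14/Smoc2-side genes were lower. All compared genes stood at 17.3% higher and 17.2% lower against endothelial cells, and at 17.8% and 3.92% against tenocytes. The list counts here and below are to be read beside these shares. Of the 12 pan-stromal genes, 10 stood more than 2-fold higher and 1 lower in FAPs than in endothelial cells (median log2 2.91, where all compared genes had -0.17). Against tenocytes 9 were higher and 2 lower (median 1.71, all genes 0.26). Ly6a, the stem cell antigen Sca-1 often used to sort FAPs, stood at 2543 cpm in FAPs and 2424 cpm in endothelial cells (log2 0.07), so it did not part these 2 labels, and Ly6e was lower in FAPs (-2.49). Cd34 stood at 1325 cpm in FAPs and 577 cpm in endothelial cells. Serpinf1, which encodes an antiangiogenic serpin, was abundant in FAPs (2573 cpm) and higher still in tenocytes (13812 cpm).

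The matrix lists differed in how they set FAPs against tenocytes. All 12 interstitial collagen genes stood more than 2-fold higher in FAPs than in endothelial cells (median 2.70). Against tenocytes 5 were higher and 4 lower: Col3a1 stood at 4037 against 911 cpm (log2 2.15) and Col14a1 at 333 against 80.6 cpm (2.05), whereas Col1a1 stood at 2008 against 22758 cpm (-3.50), Col1a2 at 2148 against 19001 cpm (-3.15) and Col12a1 at 21.1 against 369 cpm (-4.13). Basement membrane genes showed the opposite order, with 10 of 12 more than 2-fold higher in FAPs than in tenocytes (median 2.57) and 4 of 12 higher than in endothelial cells (median 0.88). Lamb1 and Lama4, laminin chains, stood at 4.05 (interval 2.50 to 6.33) and 3.84 (2.29 to 6.12) over tenocytes, and Nid2, a nidogen that links laminin to collagen, at 2.89 (1.34 to 5.17); each had 3 tenocyte UMIs. Lama2, the laminin chain that muscle fibres anchor to, stood at 153 cpm in FAPs and 14.8 cpm in endothelial cells (3.37), and the collagen gene Col4a2 at 209 against 470 cpm (-1.17). Sparc was the list member that was lower than in tenocytes (-2.82).

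Small proteoglycan and elastic fibre genes were higher than in endothelial cells for 14 of 18 (median 2.70), and against tenocytes 9 were higher and 6 lower. Efemp1 (3.69), Fbn1 (2.67) and Mfap5 (2.65) led the FAP side and Fmod (-9.84), the microfibril gene Mfap4 (-4.47) and Prelp (-2.75) the tenocyte side. Collagen processing genes were higher than in endothelial cells for 7 of 10. Against tenocytes 2 were higher and 2 lower, beside 17.8% and 3.92% of all compared genes. Those 2 lower genes were Lox, which cross-links collagen (30.5 against 655 cpm, -4.42), and P4ha1, a collagen prolyl hydroxylase (92.7 against 540 cpm, -2.54). Loxl1, which acts on elastin, stood at 396 against 92.8 cpm (2.09). Of 14 proteases and inhibitors 12 were higher than in endothelial cells (median 2.47), led in level by Serping1, the C1 inhibitor (2184 cpm), the metalloprotease inhibitor Timp2 (1414 cpm) and the gelatinase Mmp2 (890 cpm).

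**Figure D2:**
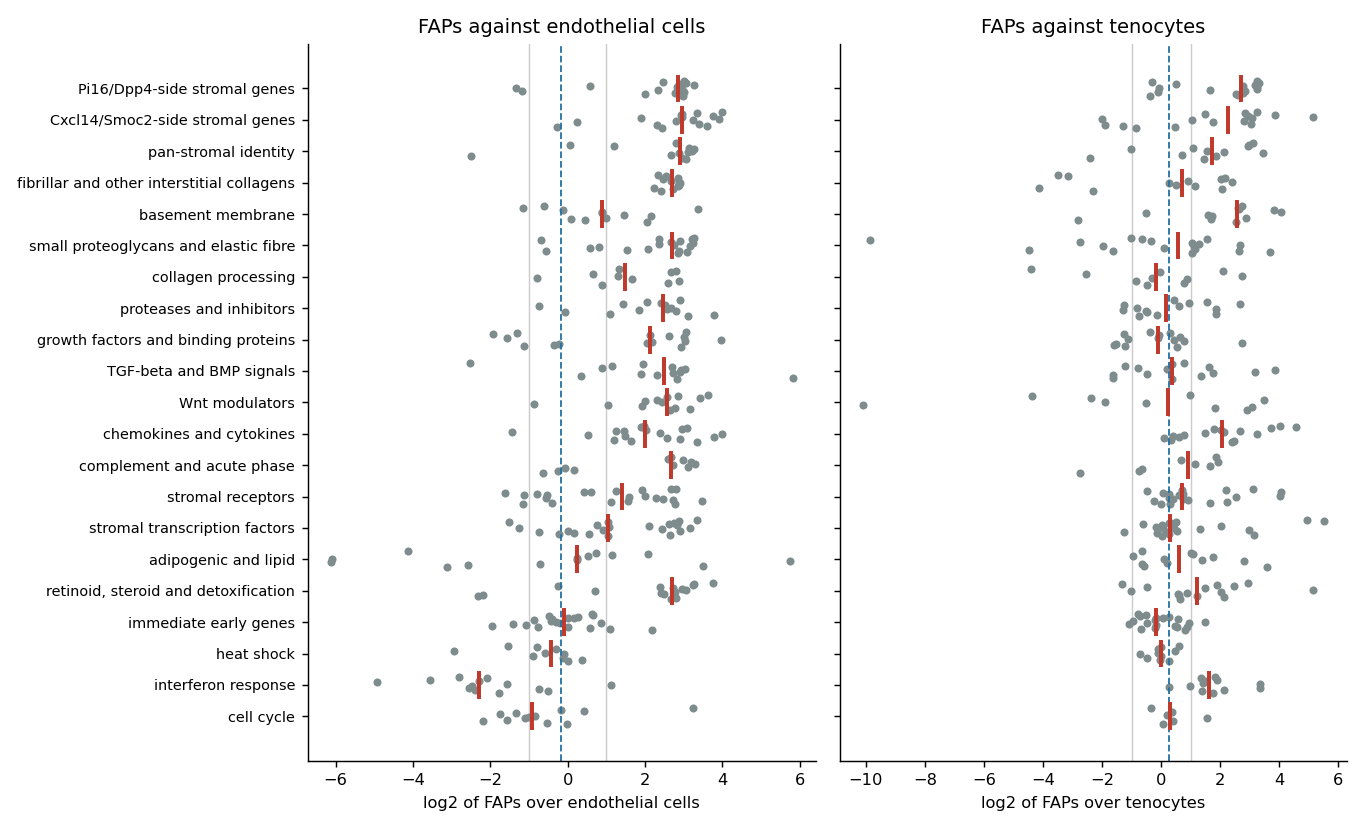
Log2 ratio of FAPs over endothelial cells (left) and over tenocytes (right) for the members of 21 fixed gene lists; grey points are genes, red bars list medians, the dashed blue line the median of all compared genes and the pale lines 2-fold. Basement membrane genes have a median of 0.88 against endothelial cells and 2.57 against tenocytes, and interferon response genes -2.29 and 1.62.

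Among secreted signals, 16 of 18 compared chemokines and cytokines stood more than 2-fold higher in FAPs than in endothelial cells (median 2.00) and 11 of 16 higher than in tenocytes, with none lower (median 2.07). Cxcl1 (1660 cpm), Ccl11 (1522 cpm) and Cxcl14 were the most abundant. Cxcl12, a chemokine that holds progenitors and lymphocytes in place, was the exception, at 501 cpm in FAPs and 1348 cpm in endothelial cells (-1.43). Growth factors and their binding proteins were higher than in endothelial cells for 9 of 15 and lower for 4. Igf1 stood at 313 cpm in FAPs, 37.4 in endothelial cells and 403 in tenocytes, Igfbp5 at 1888 cpm, and Igfbp7 at 1572 against 4660 cpm in endothelial cells (-1.57). Of 14 compared genes of TGF-beta and BMP signalling 11 were higher than in endothelial cells. The secreted modulators Fstl1 (1271 cpm), Nbl1 (1235 cpm) and Fst (266 cpm) stood above the ligands Bmp2 (104.1 cpm), Tgfb2 (103.9 cpm), Bmp5 (73.2 cpm) and Bmp4 (66.6 cpm). The ligand Tgfb1 was lower than in endothelial cells (33.8 against 193 cpm, -2.51). Wnt modulators were higher than in endothelial cells for 12 of 13. Against tenocytes they split 4 to 4, with Sfrp5 (3.50 with 1 tenocyte UMI, interval 1.01 to 8.80), Wnt2 (3.08, 1.53 to 5.36) and Wnt11 (2.91, 1.05 to 5.95) on the FAP side and Wif1, Sfrp2 (-4.36) and Sfrp4 (-2.36) on the other.

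Of the 11 compared complement and acute phase genes 7 stood more than 2-fold higher in FAPs than in endothelial cells (median 2.66). C3 stood at 1079 cpm, C1s1 at 443 cpm and C1ra at 360 cpm, while the C1q chains C1qa, C1qb and C1qc stood at 2.88 to 4.83 cpm in FAPs and 1016 to 1633 cpm in immune cells. Of 22 stromal receptors 13 were higher and 3 lower than in endothelial cells (median 1.40). The scavenging chemokine receptor Ackr3 stood at 673 cpm, the endocytic receptor Lrp1 at 399 cpm and the FGF receptor Fgfr1 at 260 cpm. Tek, the angiopoietin receptor, had 79.6 cpm in FAPs, 175 in endothelial cells and 4.89 in tenocytes, where 2 UMIs were counted (log2 4.03 over tenocytes, interval 2.17 to 7.07). Of 22 stromal transcription factors 13 were higher and 2 lower than in endothelial cells. Osr1 stood at 4.94 over tenocytes, where it had 1 UMI (interval 2.46 to 10.2), beside 5.53 for its relative Osr2, whereas the limb mesenchyme factors Prrx1 and Tbx15 stood at 0.02 and 0.45 over tenocytes.

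Adipogenic and lipid genes were higher than in endothelial cells for 4 of 14 and lower for 5 (median 0.23). Pparg, the master regulator of fat cell formation, stood at 2.75 cpm in FAPs and 48.0 cpm in endothelial cells (-4.12), and the fatty acid carriers Fabp4 and Cd36 at 286 and 22.5 cpm against 19386 and 1568 cpm (-6.08 and -6.12). In the same list the lipase gene Lpl stood at 491 cpm and Cebpb at 641 cpm. Of 16 compared retinoid, steroid and detoxification genes 12 were higher and 2 lower than in endothelial cells (median 2.70), with the metallothioneins Mt1 and Mt2 at 3872 and 3207 cpm. Interferon response genes were lower than in endothelial cells for 10 of 13 (median -2.29), with Rsad2 at 5.51 against 169 cpm (-4.94) and Isg15 at 53.8 against 632 cpm (-3.56). Against tenocytes the same list stood higher for 10 of 12 (median 1.62, 3 of the 12 values being lower bounds). Against tenocytes, FAPs had 7 of 20 receptors, 6 of 20 transcription factors, 8 of 15 retinoid, steroid and detoxification genes, 6 of 12 adipogenic genes and 4 of 8 complement genes more than 2-fold higher, and 0, 1, 2, 0 and 1 lower, beside 17.8% and 3.92% of all compared genes. Growth factors and binding proteins had 1 of 14 higher and 5 lower, TGF-beta and BMP genes 5 and 3 of 14, and proteases and inhibitors 4 and 2 of 14. Cell cycle genes were lower than in endothelial cells for 5 of 12 compared members and higher for 1, Ccnb2 (3.06 against 0.322 cpm, the latter 1 UMI; log2 3.25, interval 0.70 to 8.58). Of 10 heat shock genes none was higher and 2 were lower than in endothelial cells (median -0.44), Hspb1 at 304 against 2345 cpm (-2.95) and Hspa1a at 1307 against 3804 cpm (-1.54), and none was past 2-fold against tenocytes (median -0.02). The 2 lower genes are near the 17.2% of all compared genes that were lower, so that count is no result about the list. The proliferation genes Mki67, Top2a and Ccnb1 stood at 0.673 to 1.16 cpm in FAPs and 10.2 to 52.7 cpm in immune cells.

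The FAPs were next divided by their own marker UMIs after thinning to 1000 UMIs each, which left out none of them. Of 3516 FAPs, 563 (16.0%, interval 14.8 to 17.3) had UMIs of Pi16 or Dpp4 and none of Cxcl14, Smoc2 and Myoc, and 1175 (33.4%, 31.9 to 35.0) had the reverse. Both sets were present in 1686 FAPs (48.0%) and neither in 92 (2.62%). Endothelial cells treated alike stood at 10.6%, 18.9%, 4.87% and 65.7%, and how much of the FAP shares comes from free RNA was not tested. The classes are ranges along UMI counts and not cell types. A single defining UMI placed 69 of the 563 cells (12.3%) and 72 of the 1175 (6.13%), and the shares moved with depth: at 2000 UMIs the both class was 64.2% and at 500 UMIs 30.7%. Median UMIs before thinning were 4352 and 4266 in the single-set classes, 4672.5 in the both class and 4008 in the neither class. The 92 neither cells had 20544 cpm of red blood cell markers and 457 cpm of muscle stem cell markers, against 247 to 389 and 33.2 to 77.4 cpm in the other 3 classes.

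Some marker pairs shared cells more often than their single shares give, and others less often. Smoc2 and Cxcl14 occurred together in 19.7% of thinned FAPs, 1.60 times the product of their single shares, and Pi16 and Dpp4 in 6.06%, 1.37 times. Across the sets, Dpp4 and Cxcl14 met in 14 cells, 0.245 times the product, Dpp4 and Smoc2 in 65 cells (0.499 times) and Pi16 and Cxcl14 in 348 cells (0.677 times). The ratios of Myoc with all 5 other markers lay between 0.924 and 1.14, with 0.949 for Pi16 and 1.01 for Cxcl14. Myoc was found in 67.8% of thinned FAPs, and a gene found in most cells cannot have a ratio far above 1. Myoc met Smoc2 in 40.8% of FAPs, where the product was 35.9%, and Pi16 in 40.6%, where it was 42.7%. Pi16 and Smoc2 were likewise found in most thinned FAPs, in 63.0% and 53.0%. The size of ratios with Myoc, Pi16 or Smoc2 therefore cannot be compared with that of rarer markers. Pdgfra ratios ran from 0.861 with Pi16 to 1.19 with Smoc2. These ratios are over 3516 cells of 1 library and carry no test, and any part of free RNA in them was not tested.

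**Figure D3:**
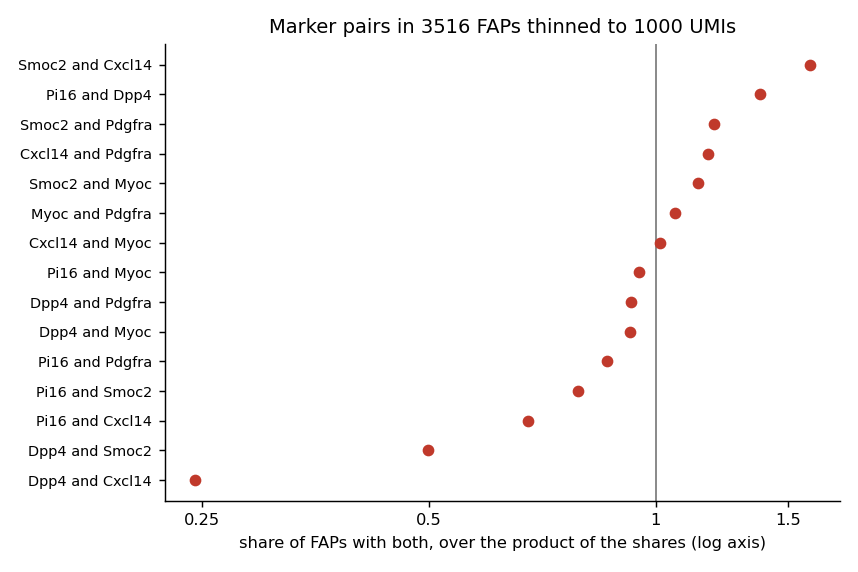
Share of FAPs with a UMI of both genes divided by the product of the 2 single shares (horizontal log axis) for the 15 pairs of the 6 markers, in 3516 FAPs thinned to 1000 UMIs each; the vertical line marks 1. Dpp4 with Cxcl14 is lowest at 0.245, Smoc2 with Cxcl14 highest at 1.60, and the pairs of Myoc lie near 1. Myoc was found in 67.8% of these cells, Pi16 in 63.0% and Smoc2 in 53.0%, which limits how far their ratios can rise above 1.

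The 2 single-set classes were compared over the genes that did not define them. Of 8087 compared genes, 526 (6.5%) stood more than 2-fold higher in Pi16/Dpp4-only FAPs and 1009 (12.5%) more than 2-fold higher in Cxcl14/Smoc2/Myoc-only FAPs. Many of these genes had few UMIs: the 95% interval lay wholly past 2-fold for 167 of the 526 and 225 of the 1009, and wholly on their side of equality for 435 and 652. With cells thinned to 2000 UMIs, 337 of the 526 and 607 of the 1009 passed 2-fold again. Classes made from Pi16 and Cxcl14 alone gave 623 genes on the Pi16 side and 439 on the Cxcl14 side. Of the 14 compared genes listed for the Pi16/Dpp4 side of stroma 13 were on that side (median log2 2.63), and of the 13 listed for the other side 12 were on theirs (median -3.09), beside a median of -0.09 for all genes. The classes were made from genes of those lists and the lists were chosen with earlier results known, so the counts are no independent evidence of direction. Fn1 (fibronectin) stood at 2739 cpm in the Pi16/Dpp4-only class and 630 cpm in the other, and Sema3c, a guidance cue, at 757 and 89.4 cpm. With at least 20 UMIs expected in each class, an alternative chosen after seeing the data, 189 and 292 genes remained past 2-fold.

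On the Pi16/Dpp4 side, Dact2, an inhibitor of TGF-beta and Wnt signalling, stood at 218 against 6.81 cpm (log2 5.00, interval 3.98 to 6.25). Aldh1a3, which makes retinoic acid, stood at 146 against 5.11 cpm (4.83, 3.65 to 6.32), and the orphan receptor Mrgprg at 291 against 11.1 cpm (4.72). Ptx3 reached 1025 against 63.8 cpm (4.01, 3.66 to 4.37), and Daglb, a diacylglycerol lipase, 467 against 38.3 cpm (3.61). Wnt2 stood at 142 against 12.8 cpm (3.48) and the inflammasome cytokine Il18 at 153 against 12.8 cpm (3.58). Aif1l, Car8, Cldn11, Limch1, Sbsn, Smpd3 and Gm12840 were also among the 15, at 3.33 to 4.69. Cells of the both class lay between the single-set classes for all 15.

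On the other side, Igfbp3 had 2 UMIs in Pi16/Dpp4-only FAPs and 254 in the Cxcl14/Smoc2/Myoc-only class, a log2 ratio of -5.93 with an interval of -8.98 to -4.06. Tmem176b (-5.88, -8.93 to -4.01), the homeobox gene Meox1 (-5.67, -8.72 to -3.80) and Tmem176a (-5.08, -8.14 to -3.20) likewise had 2 UMIs in the Pi16/Dpp4-only class. Among well-covered genes, Mgp, the calcification inhibitor matrix Gla protein, stood at 5557 against 378 cpm (-3.88, interval -4.08 to -3.68), Apoe, a lipid carrier, at 950 against 53.3 cpm (-4.16) and Col15a1, a collagen of vessel and fibre basement membranes, at 552 against 32.0 cpm (-4.11). The metalloreductase Steap4 (-4.26), the growth factor genes Mdk (-4.04) and Bmp5 (-3.85), Comp, Cpxm2, Clec1a, Ndufa4l2 and Cpe completed the 15. Of these 15 genes 14 stood higher in another label than in all FAPs, against 2 of the 15 on the Pi16/Dpp4 side. Smooth muscle cells were highest for 4, among them Ndufa4l2 (1356 cpm), Steap4 (720 cpm) and Cpe (527 cpm), and tenocytes for 4, among them Mgp (6298 cpm), Comp (3156 cpm) and Cpxm2 (1688 cpm). Immune cells were highest for 3, Apoe (3494 cpm), Tmem176a and Tmem176b, and endothelial cells for 2, among them Igfbp3 (401 cpm). Summed tenocyte markers, which include Comp, were 40.9 cpm in the Pi16/Dpp4-only and 266 cpm in the Cxcl14/Smoc2/Myoc-only class, while immune markers stood at 142 and 129 cpm. Smooth muscle and pericyte markers stood at 21.3 and 53.6 cpm and glial markers at 14.2 and 53.6 cpm. Mesothelial or epithelial markers stood at 88.8 and 13.6 cpm, a sum that rests on Krt19, which had 462 UMIs in all FAPs where Msln, Upk3b and Epcam had 10, 6 and 1 and Krt18 none. Their part in the class differences was not tested.

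**Figure D4:**
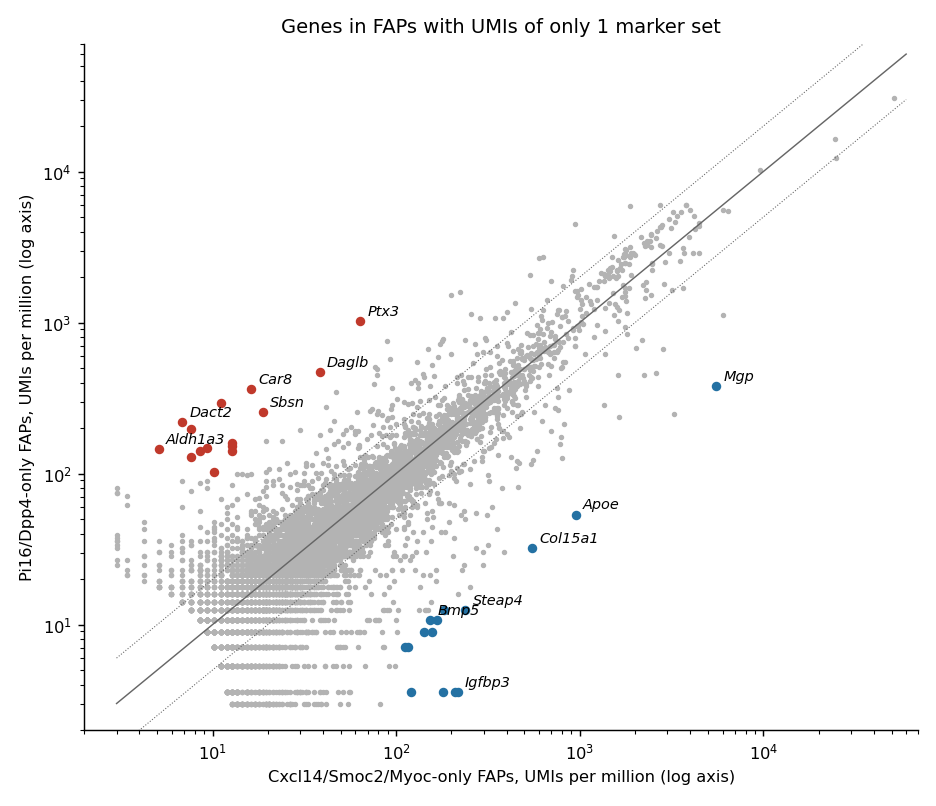
Level of 8087 genes in Pi16/Dpp4-only FAPs (vertical) against Cxcl14/Smoc2/Myoc-only FAPs (horizontal), in cpm on log axes, with genes under 3 drawn at 3; coloured points are the 15 largest ratios each way among genes of at least 100 cpm, the solid line is equality and dotted lines 2-fold. Ptx3 (1025 against 63.8 cpm) and Mgp (378 against 5557 cpm) are the most abundant of the coloured genes on their sides.

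Among the fixed lists, small proteoglycan and elastic fibre genes split between the classes, with 4 of 18 more than 2-fold higher on the Pi16/Dpp4 side and 7 on the other, and basement membrane genes 0 and 5 of 12. All compared genes stood at 6.5% and 12.5%, beside which these and the next counts are to be read. Higher on the Cxcl14/Smoc2/Myoc side were Lum, the proteoglycan lumican, at 2835 against 670 cpm (log2 -2.08), Bgn at 1353 against 286 cpm (-2.24) and Col4a2 at 311 against 53.3 cpm (-2.55). The elastic fibre genes Efemp1 (2.08), Fbn1 (1.49) and Mfap5 (1.29) and the collagen gene Col14a1 (2.17) were on the Pi16/Dpp4 side. Of 15 compared retinoid, steroid and detoxification genes 8 were on the Cxcl14/Smoc2/Myoc side (median -1.72), among them Adh1 (-4.10, interval -6.40 to -2.51) and Rbp4 (-3.23), while Aldh1a3 and the metallothioneins Mt1 and Mt2 (1.13 and 1.66) were on the Pi16/Dpp4 side. Of 16 compared chemokines and cytokines 6 were on the Pi16/Dpp4 side, including Il33 (346 against 46.8 cpm, 2.89), Cxcl2 (2.73), Ccl2 (2.16) and Ccl7 (1.90), and 3 on the other, including Cxcl12 (192 against 696 cpm, -1.86). Ccl11 and Cxcl1 stood at -0.35 and 0.03. Adipogenic and lipid genes were on the Cxcl14/Smoc2/Myoc side for 7 of 13, with Lpl at 793 against 176 cpm (-2.17), and none was on the Pi16/Dpp4 side. Class medians were 0.73 for chemokines and cytokines and -1.52 for adipogenic and lipid genes, and 16 of the 21 lists lay between -1.01 (Wnt modulators) and 0.22 (proteases and inhibitors). Heat shock genes were on the Cxcl14/Smoc2/Myoc side for 3 of 10, beside 12.5% of all genes.

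How much each gene varied from cell to cell was taken as the variance around the level set by cell depth, divided by the variance that counting alone gives. At equal relative spread this ratio rises with the level of a gene, so it does not rank genes or lists of unlike level by relative spread. Over the 1446 genes of at least 100 cpm this ratio had a median of 1.17, and 321 genes (22.2%) exceeded 2. The 3 globin genes Hbb-bs, Hba-a1 and Hba-a2 came first, at 1484, 791 and 673, and 89.7 to 95.2% of their UMIs lay in 35 cells. Without the 67 FAPs that went to another marker list, all 3 left the 25 most variable genes and the other 22 stayed among them. Apod, a lipid-binding apolipoprotein, was next at 70.2, with a UMI in 69.4% of FAPs, followed by Mgp at 51.8, Gsn at 40.9, Ccl2 at 38.5 and Cxcl14 at 37.3. The 35 cells with the most UMIs of a gene held 3.30% of them for Gsn and 37.5% for the less abundant Ccl2. Of the fixed lists with at least 5 such genes, chemokines and cytokines had the highest median (14.7 over 9 genes). Stromal receptors had 1.32 over 8 genes and collagen processing genes 1.48 over 6.

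**Figure D5:**
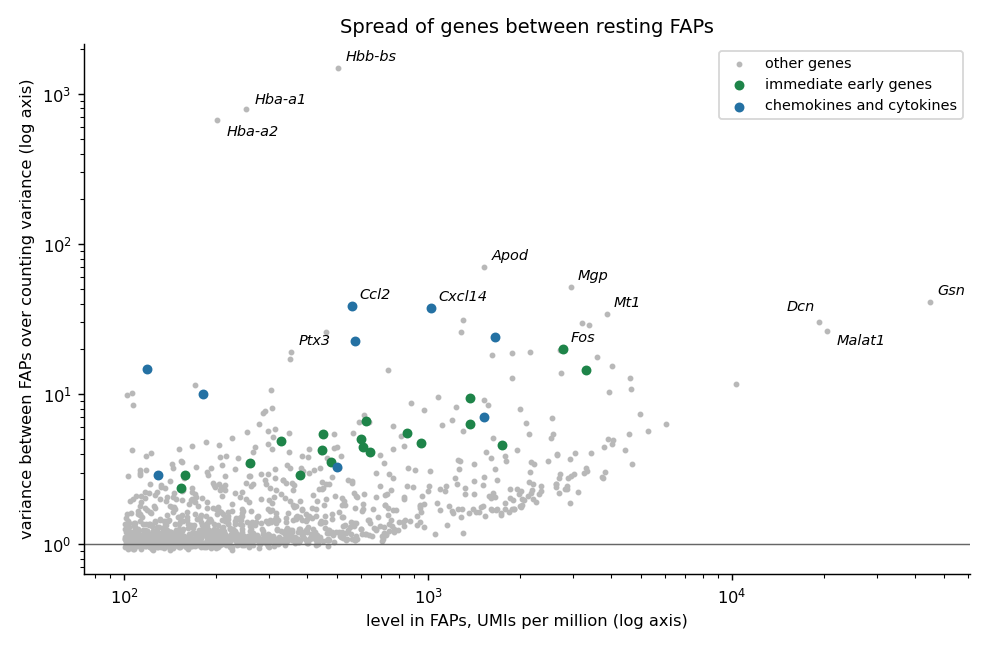
Variance of each gene between FAPs over the variance that counting alone gives (vertical log axis) against its level in cpm (horizontal log axis), for the 1446 genes of at least 100 cpm in 3516 FAPs of 1 library; coloured points are the immediate early and the chemokine and cytokine lists and the line marks 1. The 3 globin genes stand at 673 to 1484 and Apod at 70.2, where the median gene is at 1.17.

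Several of the variable genes varied together. Over the 3516 FAPs, as Pearson correlations of depth-adjusted residuals, Mt1 and Mt2 had an r of 0.826, Mgp and the protease inhibitor Cst3 0.713, Tnfaip6, a hyaluronan-binding protein, and Mt2 0.660, Smoc2 and Dcn 0.641, Ptx3 and Mt2 0.540, Cxcl14 and Smoc2 0.513, Pi16 and Igfbp5 0.510, and Ccl2 and Ccl7 0.488. Pi16 had negative values with Smoc2 (-0.37), Gsn (-0.33), Cst3 (-0.33), Dcn (-0.32) and Mgp (-0.30). Ptx3, Tnfaip6, Mt1, Mt2, Ccl2 and Ccl7 stood higher in Pi16/Dpp4-only FAPs by log2 ratios of 1.13 to 4.01. The cells share their library, and any part of free RNA was not tested, so these values are descriptions.

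Immediate early genes, which encode transcription factors and feedback inhibitors that cells switch on within minutes of a stimulus, dissociation of the tissue included, were abundant in these cells. Junb stood at 3319 cpm, Fos at 2785, Jund at 1754 and Jun at 1374 cpm, and the 20 genes of the list took a median of 1.5% of a FAP's UMIs after thinning, from 0.2% at the 5th to 4.2% at the 95th percentile and 9.9% at most. They did not set FAPs apart as a list. Against endothelial cells 2 of 20 stood more than 2-fold higher and 3 lower (median -0.09), beside 17.3% and 17.2% of all compared genes. Against tenocytes 1 stood higher and 1 lower (median -0.18), beside 17.8% and 3.92%. The 2 higher genes were Myc (153 against 34.2 cpm, 2.17) and Maff (158 against 74.1 cpm, 1.09), and the 3 lower ones Klf2, a flow-sensing factor (-1.96), Btg2 (-1.42) and the phosphatase Dusp1 (-1.07). All 19 list members of at least 100 cpm had a spread ratio above 2, with Fos at 19.8 and Junb at 14.4. The 171 pairs among them had a median r of 0.238, from 0.0493 for Dusp1 and Klf4 to 0.567 for Junb and Egr1. Between the classes 1 of the 20 was past 2-fold on the Pi16/Dpp4 side and 4 on the other, near the 6.5% and 12.5% of all genes, so the counts are no result about the list. Fos stood at 1682 cpm in Pi16/Dpp4-only and 3653 cpm in Cxcl14/Smoc2/Myoc-only FAPs (-1.12), Jun at -1.11, Fosb at -1.30, Klf4 at 1.07 and Junb at -0.35. How far digestion set these levels was not tested.

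The promoters of the immediate early genes were read for the cAMP response element TGACGTCA and the AP-1 element TGANTCA, on both strands, in the 250 bases before the start in RefSeq on GRCm38.p6. Whether these elements bear on how the genes varied together was not tested. Of 20 genes 17 had an entry, and 3 of them held TGACGTCA, beside 1.55% of 32851 promoters in the table. None held TGANTCA, beside 6.75% of all promoters. The first counts are of genes, of which Egr2 and Maff have several starts, and the shares are of promoters, so they are not like measures. The 3 promoters with a match are shown as the ones that hold it, 5′ to 3′ on the gene's strand, with the element in capitals. Btg2 lies at chr1:134079156-134079405 on the minus strand with the element starting at -166, Dusp1 at chr17:26508473-26508722 on the minus strand (-143), and 1 of the 3 starts of Maff at chr15:79347270-79347519 on the plus strand (-29).
Btg2: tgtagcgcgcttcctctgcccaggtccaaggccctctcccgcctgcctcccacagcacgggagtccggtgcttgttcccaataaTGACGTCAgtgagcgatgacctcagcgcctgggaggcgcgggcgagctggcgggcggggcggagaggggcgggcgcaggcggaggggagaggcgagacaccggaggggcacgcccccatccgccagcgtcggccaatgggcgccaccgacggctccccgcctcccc
Dusp1: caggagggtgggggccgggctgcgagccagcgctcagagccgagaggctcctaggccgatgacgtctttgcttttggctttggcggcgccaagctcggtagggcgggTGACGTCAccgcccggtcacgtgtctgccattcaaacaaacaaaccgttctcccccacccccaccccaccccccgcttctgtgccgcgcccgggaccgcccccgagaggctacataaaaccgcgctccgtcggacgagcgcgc
Maff: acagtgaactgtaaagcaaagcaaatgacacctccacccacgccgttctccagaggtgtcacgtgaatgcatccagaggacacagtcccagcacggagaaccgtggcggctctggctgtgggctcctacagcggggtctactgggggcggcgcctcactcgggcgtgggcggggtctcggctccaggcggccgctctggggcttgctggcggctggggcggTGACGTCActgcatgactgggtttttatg
A match shows that these letters are in the window and is not a binding site measured here.

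The day 0 FAP genes stood at other levels in the FAP labels after injury, which held 667 cells at day 2, 828 at day 5, and 1537 and 352 cells at day 7, where the authors used the labels FAPs and FAPs (activated). Pi16 stood at 2707 cpm at day 0, 126 at day 2, 1253 at day 5, and 274 and 5167 in the 2 labels of day 7. Myoc stood at 2733, 140, 1111, 123 and 534 cpm in the same order. Smoc2 stood at 2168, 432, 1646, 1371 and 343 cpm, so that at day 7 Pi16 was high in one label and Smoc2 in the other. Cxcl14 stood at 1024, 1881, 730, 1469 and 3033 cpm in the same order. At day 7 Cxcl14 and Myoc were thus higher in FAPs (activated), as Pi16 was. Pdgfra stayed between 174 and 319 cpm. Gsn stood at 44811 cpm at day 0 and at 2307 to 14026 cpm in the others. Of the 20 genes with the largest ratios over the other day 0 labels, 14 were below 0.5 times their day 0 level at day 2, 6 at day 5, 14 in the FAPs label of day 7 and 4 in FAPs (activated). Of all genes of at least 20 cpm in day 0 FAPs, 13.6%, 10.1%, 10.8% and 8.52% did so in the same order. The 20 were chosen for high values in the day 0 library that is also the reference here, so the counts are a description. Inmt had 172 cpm at day 0 and 3.47 cpm at day 2, whereas Col14a1 had 333 and 777 cpm at days 0 and 5. Each day is 1 library, and day, library, age at day 2 and sex at day 7 cannot be told apart.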

How the data were processed

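Per the labels' protocols, live sorted cells of mouse tibialis anterior were profiled with Chromium 3′ v2 kits. The authors deposited UMI counts per gene and barcode, 1 table per day, and cell labels as text. Their normalized day 0 values are, per the values in the deposited table, the natural log of 1 plus 10000 times a cell's share. Mitochondrial content was deposited by the authors as a fraction per cell. The build mm10 and the tools R 3.6.2, Seurat 2.3.4 and Cell Ranger 2 are listed in the submitters' processing notes, where neither role nor order is given. Genes are given by symbol.

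UMI counts of labelled cells were summed per label (Python 3.11.15, scipy 1.17.1) and expressed per 1000000 UMIs (cpm). The 14 day 0 barcodes without a label were left out, and no further filter on cells was set. Log2 ratios carry exact binomial 95% intervals, a floor of 3 counts stands for 0, and a gene was counted as higher or lower past 2-fold. With 1 library per day there is no test. Genes entered the first comparison at 20 cpm in FAPs, and the others where an equal level would give 5 UMIs on each side. For shares of cells and for the classes, each cell was thinned to 1000 UMIs (seed 1). No doublet caller was run; cells with at least 2 UMIs of another type's markers were left out in an alternative, which kept 1774 FAPs, 539 endothelial cells, 6 tenocytes and no cell labelled Platelets. The calculation was tested on simulated data.

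The members, 21 gene lists (318 genes, 6 of them not found in the table) and 11 marker lists were chosen with earlier results of these data known. Genes named are the 6 markers, the 15 most abundant, the 20 largest ratios over the highest other label, the 10 and 5 largest each way against tenocytes and endothelial cells, the 15 largest each way between the classes (each at 100 cpm or more), the 25 most variable, and per list the members with the highest levels and the most extreme ratios. Other list members were named for their role after their values were seen, as were Des and the 3 printed promoters. Some genes that the rule names are not reported here.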

Additional observations from a re-analysis of the deposited data

How the results depend on the processing

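No replicate could be left out, because the 2 day 0 runs share 1 matrix. No paired analysis was possible because the result comes from no test and day 0 is 1 library. The share of FAPs was 67.6% when cells were assigned by marker lists, which use the same cells and give no independent check of the label. With the authors' log-normalized values, 33 genes passed 2-fold over the highest other label, 162 and 133 stood higher and lower against endothelial cells and 71 and 68 against tenocytes, and 4 and 2 lists had a median past 2-fold, where UMI sums gave 15 and 7; a difference of mean log values is smaller than a log ratio of sums by construction. Tenocyte counts were 431 higher and 84 lower after thinning and 795 and 171 with the minimum raised 2-fold. Without cells with 2 UMIs of another type's markers they were 148 and 23 with 6 tenocytes left, 11 lists passed against tenocytes, and 288 genes passed over the highest other label with no cell left under Platelets. With the FAP and red blood cell lists set aside, a choice made after seeing the data, the tenocyte counts were 720 and 148. Thinning to 500 UMIs gave 19.9% Pi16/Dpp4-only, 42.1% Cxcl14/Smoc2/Myoc-only, 30.7% both and 7.37% neither, and thinning to 2000 gave 11.0%, 23.7%, 64.2% and 1.09%. Classes from Pi16 and Cxcl14 alone turned the balance of the sides, with 623 genes on the Pi16 side, of which 342 were among the 526, and 439 on the Cxcl14 side, of which 330 were among the 1009. A minimum of 20 expected UMIs, also chosen afterwards, gave 189 and 292 and tests fewer genes. Leaving out the 67 FAPs with another highest list moved no count past 1.5 times. Depth limits the tenocyte comparison, where 293 of 1265 higher genes had an interval wholly past 2-fold.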

Other observations

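Gas6, a ligand of TAM receptors, stood at 316 cpm in Cxcl14/Smoc2/Myoc-only and 33.7 cpm in Pi16/Dpp4-only FAPs (log2 -3.23), and the leptin receptor gene Lepr had 26 UMIs in the former and 1 in the latter. Igfbp5 and Igfbp7 had opposite directions between the same classes, at 2.26 and -2.49. Among receptors, Tgfbr2 stood at 547 cpm in Pi16/Dpp4-only and 130 cpm in Cxcl14/Smoc2/Myoc-only FAPs (2.07) and the interleukin 4 and 13 receptor chains Il4ra and Il13ra1 at 1.85 and 1.86, while Lifr stood at -1.82. Ly6c1, which is also an endothelial gene here (3553 cpm), stood at 1555 cpm in FAPs and 217 cpm in tenocytes.

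The growth factor Hgf was counted at 0.734 cpm in all FAPs and Fgf10 at 1.71 cpm, whereas Fgf7 had a UMI in 4.58% of thinned FAPs. Dlk1, an inhibitor of fat cell formation, had no UMI in Pi16/Dpp4-only FAPs and 49.4 cpm in the other class. Sfrp5 stood at 27.6 cpm in FAPs but had a UMI in 0.484% of thinned FAPs, where Sfrp1, at 23.9 cpm, had one in 2.05%.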
